A study of Mus musculus with 6 samples.

Results

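Genes of contractile vessel-wall cells were followed in bone marrow mesenchymal stem cells (BMSCs) that were differentiated towards osteoblasts with or without nickel. They are 10 of the 54532 genes in the tables, matched by gene symbol. Acta2, Myh11, Tagln, Cnn1, Des, Pdgfrb, Mcam and Rgs5 were chosen as markers of mural cells, the smooth muscle cells and pericytes that wrap blood vessels. Cspg4 and Fhl5 were chosen by their higher level in the nickel libraries of these same data, so their difference between the groups is described without a test. The BMSCs are adherent primary cells of wild type mouse marrow, a mixed population that can form osteoblasts. All cultures received osteogenic medium for 7 days, with β-glycerophosphate (10 mM), ascorbic acid (50 µg/mL) and, by the labels, 100 nM dexamethasone (the study's methods give a lower dexamethasone concentration). The Ni group (3 libraries) also received 0.1 µM nickel ions as NiCl2, and the Con group (3 libraries) received vehicle. The replicates are described as independent, but the number, age and sex of the donor mice behind each culture are not given in the sources used here.

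Mural cells are recruited to vessels by platelet-derived growth factor, which endothelial cells release and which mural cells sense through the receptor encoded by Pdgfrb. Smooth muscle cells carry smooth muscle actin (Acta2) and smooth muscle myosin heavy chain (Myh11), with transgelin (Tagln) and calponin (Cnn1) bound to the actin filaments and desmin (Des) as intermediate filament. These contractile genes are switched on by serum response factor with myocardin or the myocardin-related factors, which bind CArG boxes in their promoters and introns. Pericytes are recognised by Pdgfrb, by the chondroitin sulfate proteoglycan NG2 (Cspg4), by the adhesion molecule CD146 (Mcam) and by Rgs5, a brake on G protein signalling. None of these genes is particular to mural cells: marrow stromal cells in culture carry Pdgfrb and Mcam, and Acta2 is a gene of myofibroblasts and of stromal cells on plastic. Fhl5 encodes a protein of LIM domains that acts as a transcriptional coactivator, and it is expressed in testis and in smooth muscle.

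The libraries held 16101033 to 18642504 counts, and 14624 genes had enough reads to be tested, all 10 members among them. No gene passed an adjusted p of 0.05 in edgeR's quasi-likelihood test over all genes tested, 0% of 14624. At an unadjusted p under 0.05, 7.59% were higher and 5.83% lower in Ni. DESeq2 called 1.46% of 14337 genes higher at an adjusted p of 0.05. Con replicate 3 was nearer the Ni mean than the mean of Con replicates 1 and 2 for 67.6% of the genes tested, and no such share is given for the other controls. Without Con replicate 3 edgeR called 2283 genes at an adjusted p under 0.05, against 0 without Con replicate 1 or without Con replicate 2. The members, the gene lists and the named genes whose call changes are therefore also given without that library, in a fit of 3 Ni against 2 Con libraries. In that fit 8.69% of the 15044 genes tested were called higher and 6.49% lower at an adjusted p under 0.05, and these shares are the background for every such call below. Ni replicate 2 also mattered: without it edgeR called 13 genes at an adjusted p under 0.05, against 0 without any other library but Con replicate 3. For counts of positive log2 fold changes, the share over all genes tested was 48.1%. The labels were taken as deposited, and the nickel treatment was not checked from the counts.

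The upstream sequences of the gene with the most RNA and of the 2 genes that separated the groups are shown first, since the contractile programme is read from such DNA. They come from RefSeq's annotation of GRCm38.p6 and run 5′ to 3′ towards the transcription start, leaving out bases inside the annotated gene span. Capitals mark a CArG-like match (CC, 6 bases of which at most 1 is C or G, then GG) or the motif CATTCC on either strand, the M-CAT element bound by TEAD factors. Acta2 has 250 bases at chr19:34255374-34255623 (minus strand), Cspg4 179 bases at chr9:56864854-56865032 (plus strand) and Fhl5 226 bases at chr4:25242877-25243102 (minus strand). For the second start of Fhl5, inside the gene, 30 bases around the match are given, at chr4:25242406-25242435 (minus strand).
Acta2: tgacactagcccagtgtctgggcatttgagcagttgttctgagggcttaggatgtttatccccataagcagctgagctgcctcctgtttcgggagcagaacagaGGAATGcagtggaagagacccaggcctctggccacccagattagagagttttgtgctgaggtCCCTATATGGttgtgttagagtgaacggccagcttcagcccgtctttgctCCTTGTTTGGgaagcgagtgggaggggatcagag
Cspg4: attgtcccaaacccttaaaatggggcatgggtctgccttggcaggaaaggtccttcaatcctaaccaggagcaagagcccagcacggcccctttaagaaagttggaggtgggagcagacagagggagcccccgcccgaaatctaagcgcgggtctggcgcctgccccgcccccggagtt
Fhl5, first start: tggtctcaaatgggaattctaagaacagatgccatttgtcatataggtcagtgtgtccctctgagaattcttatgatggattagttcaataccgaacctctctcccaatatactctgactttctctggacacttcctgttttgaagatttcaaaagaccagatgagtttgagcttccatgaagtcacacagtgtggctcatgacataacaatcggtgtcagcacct
Fhl5, second start: agtcaaatttCCCTTTAAGGatattctgaa

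In the 250 bases before the start, 7 members had a RefSeq sequence (8 sequences in all). No member held a CArG box in the strict sense, with only A or T in the 6 middle bases, which 1.47% of 32851 mouse promoters hold. Acta2 had CArG-like matches beginning 84 and 34 bases before the start, CCCTATATGG and CCTTGTTTGG, and Fhl5 had one beginning 159 bases before its second start, CCCTTTAAGG. Such a match was present in 8.59% of all promoters, and among the members in Acta2 and Fhl5 only. CATTCC on either strand, present in 12.6% of promoters, lay 146 bases before the start of Acta2. TGGGAA on either strand, the core bound by RBPJ, the DNA-binding partner of Notch, was in 21.6% of promoters, and lay 27 bases before the start of Acta2 (overlapping the CArG-like match by some of its bases) and 240 bases before the first start of Fhl5. Cspg4, Cnn1, Des, Mcam and Rgs5 held none of these motifs in this window. The matches are descriptions of sequence, and binding was not measured.

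The members differed in level by orders of magnitude. In FPKM, the read count scaled by gene length and library size, Acta2 averaged 502.5 ± 214 in Con (SD, n = 3) and ranked between 37 and 101 among all genes by FPKM. Pdgfrb (16.8 ± 2.34) and Cnn1 (11.9 ± 6.57) followed, with overlapping ranges. Mcam (2.68 ± 0.446), Tagln (1.95 ± 0.667) and Rgs5 (1.22 ± 0.484) came next, each overlapping its neighbour. Cspg4 (0.603 ± 0.118), Myh11 (0.336 ± 0.244), Fhl5 (0.329 ± 0.104) and Des (0.295 ± 0.163) lay lowest, again with overlapping ranges between neighbours. Acta2 was above every other member in every library, while smooth muscle myosin (Myh11) and desmin were under 1 FPKM in every library. The other contractile members lay between them, Cnn1 at 7.98 to 21.9 FPKM and Tagln at 1.53 to 2.83 FPKM. Actg2, the other smooth muscle actin, had 29.7 to 89.5 FPKM, so the low level of Myh11 and Des does not hold for contractile genes in general. In Ni the order was the same at the top apart from Cnn1 (19.9 ± 2.42) and Pdgfrb (19.4 ± 0.630), whose ranges overlapped. Fhl5 (1.65 ± 0.0833) and Cspg4 (1.40 ± 0.319) then lay between Tagln and Rgs5. Bulk RNA cannot tell fewer cells of a type from less RNA per cell.

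**Figure D1:**
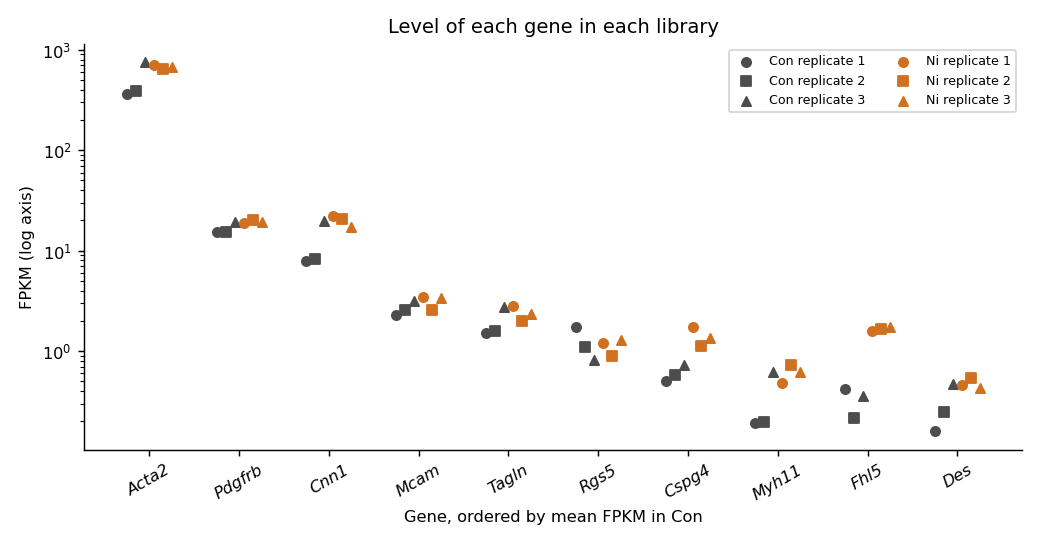
FPKM of the 10 genes (log axis) in each of the 6 libraries, ordered by the mean of the Con group. Grey points are Con and orange points Ni, with 1 shape per replicate number. Acta2 lies between 366.3 and 749.1 FPKM, and Con replicate 3 (grey triangle) lies with the Ni points for the contractile genes but not for Cspg4 and Fhl5. Cspg4 and Fhl5 were chosen for their higher level in Ni, which largely fixes where their Con points lie.

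Of the 8 marker genes, 7 had a higher mean in Ni, where 48.1% of all genes tested did, and the median log2 fold change was 0.35 on the log2 scale (-0.01 over all genes tested). None of the 8 passed the test, at an adjusted p or at an unadjusted p under 0.05, in edgeR. DESeq2 likewise gave 0 at an adjusted p of 0.05, and 1 at an unadjusted p under 0.05. For none did the 3 Ni values all lie above the 3 Con values, as they did for 7.97% of genes tested. Con replicate 3 was nearer the Ni mean than the mean of Con replicates 1 and 2 in 8 of 8, against the 67.6% of all genes given above. Being nearer is not being at the Ni level: for Rgs5, Con replicate 3 lay below every Ni value. Its log2 CPM there was -0.45 relative to the Ni mean and -0.76 relative to the mean of Con replicates 1 and 2. With 3 libraries against 3, an exact permutation test of a single gene (two-sided) cannot go below p = 0.1.

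Among the contractile genes, Acta2 (ENSMUSG00000035783, chr19:34241090-34255336, minus strand, GRCm38) had 366.3, 391.9 and 749.1 FPKM in the 3 Con libraries, in replicate order, and 700.7, 639.9 and 670 in the 3 Ni libraries. The 3 Ni libraries lay within a narrow band above Con replicates 1 and 2, and Con replicate 3 lay above all of them. Ni against Con gave a log2 fold change of 0.41 ± 0.26 (SE, edgeR, adjusted p = 0.512). Without Con replicate 3 it was 0.83 ± 0.09 (adjusted p = 0.000161). Acta2 alone took from 0.0661% to 0.136% of a library's counts, with the higher share in Con replicate 3.

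Myh11 (ENSMUSG00000018830, chr16:14194535-14291372, minus strand), the motor of smooth muscle, had 27, 24 and 79 counts in Con and 67, 97 and 86 in Ni. These are 0.193, 0.198 and 0.618 FPKM against 0.477, 0.727 and 0.623 FPKM. Its highest Con library overlapped the Ni range and the other Con libraries lay below it. The log2 fold change was 0.85 ± 0.44 (SE, edgeR, adjusted p = 0.421), and 1.64 ± 0.31 without Con replicate 3 (adjusted p = 0.00326).

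Cnn1 (ENSMUSG00000001349, chr9:22099216-22109630, plus strand), which dampens actomyosin ATPase, had 7.98, 8.34 and 19.5 FPKM in Con and 21.9, 20.5 and 17.2 FPKM in Ni. Con replicate 3 fell among the Ni libraries. For Cnn1 the log2 fold change was 0.73 ± 0.35 (SE, edgeR, adjusted p = 0.41), and 1.29 ± 0.13 without Con replicate 3 (adjusted p = 8.51e-05), the smallest adjusted p among the 8 markers in that fit. Des (ENSMUSG00000026208, chr1:75360329-75368579, plus strand) had 11, 15 and 30 counts in Con and 32, 36 and 29 in Ni, or 0.159, 0.250 and 0.475 against 0.461, 0.546 and 0.425 FPKM. Con replicate 3 lay inside the Ni range. Its log2 fold change was 0.70 ± 0.42 (SE, edgeR, adjusted p = 0.488) and 1.23 ± 0.44 without Con replicate 3 (adjusted p = 0.0807).

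Tagln (ENSMUSG00000032085, chr9:45929619-45936058, minus strand), an abundant protein of smooth muscle, had only 56, 51 and 91 counts in Con and 104, 70 and 84 in Ni. In FPKM these are 1.53, 1.60 and 2.72 against 2.83, 2.00 and 2.32. Con replicate 3 lay inside the Ni range. For Tagln the log2 fold change was 0.29 ± 0.28 (SE, edgeR, adjusted p = 0.681), and 0.61 ± 0.25 without Con replicate 3 (adjusted p = 0.138). In GENCODE M21, 1349 of the 1988 exon bases of Tagln (67.9%) also lie in exons of genes on the other strand, 1241 in the antisense RNA Gm48529 and 108 in Pcsk7. None of its 603 coding bases is free of such overlap. Gm48529 had 43, 44 and 43 counts in Con and 51, 45 and 29 in Ni (log2 fold change -0.14 ± 0.29, SE, edgeR, adjusted p = 0.87). Pcsk7 had a log2 fold change of -0.04. Whether reads were counted by strand is not given in the sources used here. The level of Tagln beside Acta2 is therefore uncertain, and the part that the overlap plays in it was not tested.

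**Figure D2:**
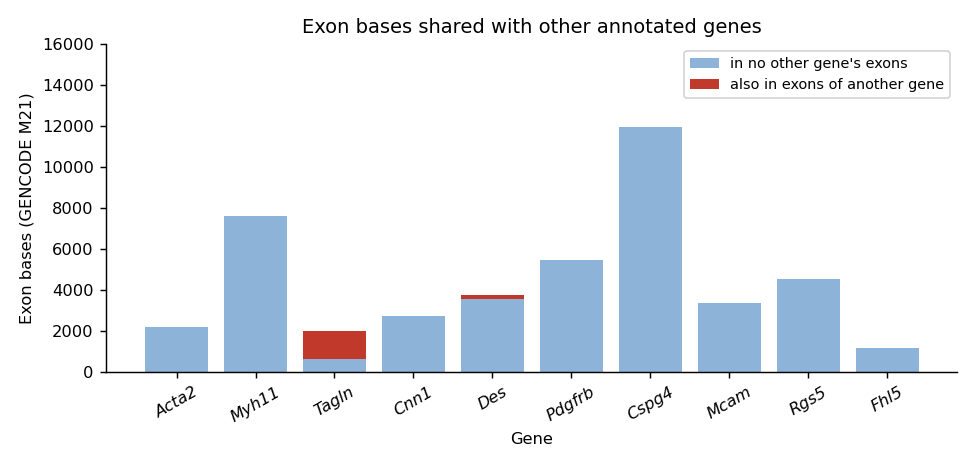
Exon bases of each gene in GENCODE M21 (vertical axis, bases), split into those in no other gene's exons (blue) and those also in exons of another gene (red). Tagln stands out with 1349 of 1988 bases shared, against 220 of 3754 for Des, 17 of 3350 for Mcam and 0 for the other 7.

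The other members were nearly free of shared sequence. Des shared 220 bases with Gm15179, which had no count in any library, and Mcam shared 17 with Gm10687, which had at most 5 counts. Of the 50-base stretches of Acta2 transcripts, 0.326% also occurred in another gene (Actg1 and pseudogenes), and of Myh11 0.34% (Myh9 and Myh10). Fhl5 lies inside the span of Gm11906, which had no count.

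Pdgfrb, Mcam and Rgs5, the pericyte genes among the 8 markers, had log2 fold changes of at most 0.21. Pdgfrb (ENSMUSG00000024620, chr18:61045150-61085061, plus strand) had 15.4, 15.4 and 19.5 FPKM in Con and 18.8, 20.02 and 19.5 FPKM in Ni. Con replicate 3 lay inside the Ni range and the other controls just below it. For Pdgfrb the log2 fold change was 0.21 ± 0.11 (SE, edgeR, adjusted p = 0.434), and 0.34 ± 0.09 without Con replicate 3 (adjusted p = 0.0238). Mcam (ENSMUSG00000032135, chr9:44134469-44142727, plus strand) had 2.30, 2.58 and 3.17 FPKM in Con and 3.42, 2.55 and 3.37 FPKM in Ni, with the ranges overlapping through both Con replicate 2 and Con replicate 3. Its log2 fold change was 0.21 ± 0.19 (SE, edgeR, adjusted p = 0.651), and 0.36 ± 0.19 without Con replicate 3 (adjusted p = 0.252).

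Rgs5 (ENSMUSG00000026678, chr1:169655501-169695813, plus strand) was the marker without a higher mean in Ni. It had 1.75, 1.1 and 0.810 FPKM in Con and 1.21, 0.889 and 1.29 FPKM in Ni, and every Ni value lay within the Con range. For Rgs5 the log2 fold change was -0.12 ± 0.29 (SE, edgeR, adjusted p = 0.896). Without Con replicate 3 it was -0.33 (adjusted p = 0.451). Without Con replicate 1 it turned to 0.24, and without Ni replicate 2 to 0.03, so its sign rested on single libraries.

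Without Con replicate 3, 4 of the 8 markers were called higher at an adjusted p under 0.05 (Acta2, Myh11, Cnn1 and Pdgfrb), where 8.69% of the 15044 genes tested were. The 3 Ni values lay above both controls for 6 of 8, against 22.2% of all genes. The median of the 8 was then 0.72 (0 over all genes tested). Leaving out a library because of its values changes the comparison, so these calls describe that choice and not the labelled groups.

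**Figure D3:**
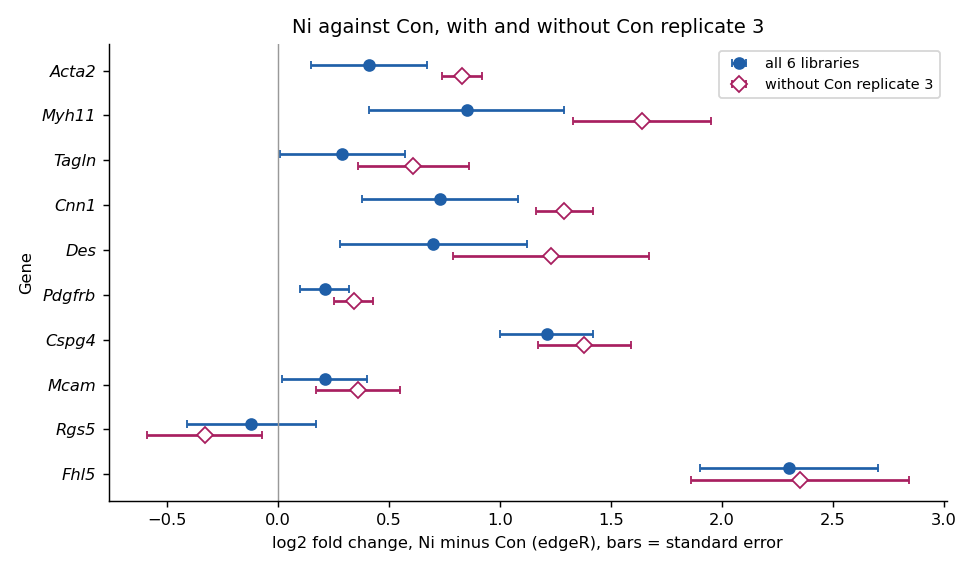
Log2 fold change of Ni against Con (horizontal axis) for each gene, with bars of 1 standard error, from all 6 libraries (blue circles) and without Con replicate 3 (open diamonds). The contractile genes move to the right without that library, from 0.41 to 0.83 for Acta2 and from 0.85 to 1.64 for Myh11, while Rgs5 stays left of 0 and Cspg4 and Fhl5, chosen for this contrast, lie furthest to the right with all libraries.

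Cspg4 and Fhl5 set the groups apart, which is what they were chosen for. The low place of Con replicate 3 in both genes follows largely from that choice. Cspg4 (ENSMUSG00000032911, chr9:56865033-56899870, plus strand) had 110, 110 and 147 counts in Con and 384, 233 and 291 in Ni, which is 0.5005, 0.577 and 0.732 against 1.74, 1.11 and 1.34 FPKM. Every Ni library was above every Con library, and Con replicate 3 lay 0.90 below the Ni mean on the log2 scale. The log2 fold change was 1.21 ± 0.21 (SE), and from 1.03 to 1.38 with 1 library left out. The nearest neighbour, Odf3l1 on the other strand, lies 353 bases away and had 2 to 7 counts, too few to be tested.

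Fhl5 (ENSMUSG00000028259, chr4:25199908-25242876, minus strand) had 9, 4 and 7 counts in Con and 34, 34 and 37 in Ni, which is 0.417, 0.214 and 0.355 against 1.57, 1.65 and 1.74 FPKM. The lowest Ni library was above the highest Con library. Con replicate 3 lay 1.95 below the Ni mean on the log2 scale, at the level of the other controls. The log2 fold change was 2.30 ± 0.40 (SE), and from 2.08 to 2.51 with 1 library left out. It rests on few reads, and Fhl5 passed the filter on low counts only through the Ni libraries, where it had to be higher to be tested at all.

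**Figure D4:**
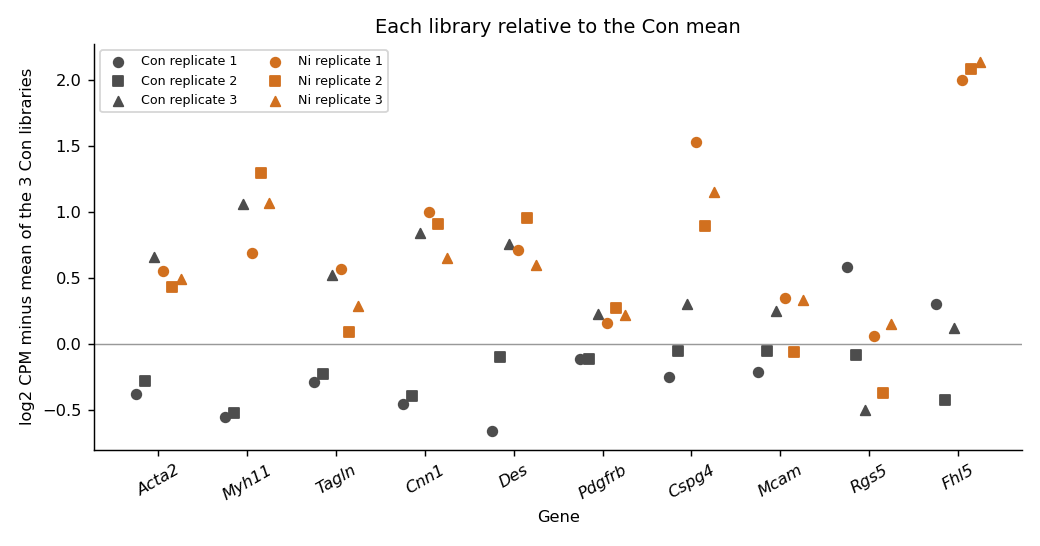
Log2 CPM of each gene in each library minus the mean of the 3 Con libraries (vertical axis). Con replicate 3 (grey triangle) is at 0.66 for Acta2 and 1.06 for Myh11, within or above the Ni points (orange), but at 0.30 for Cspg4 and 0.12 for Fhl5, below all of them. Cspg4 and Fhl5 were chosen for their higher level in Ni, so their gap to Con replicate 3 follows largely from that choice.

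The wider contractile programme was followed with 37 further genes, of which 34 were tested. The list also holds genes of the general actin cytoskeleton and of adhesions, such as Flna, Vcl and Actn1. These are not particular to smooth muscle, so the counts below are not either. The median log2 fold change of the 34 was 0.35, with 31 positive (48.1% of all genes tested) and none at an adjusted p under 0.05. In edgeR 11 were higher at an unadjusted p under 0.05 (7.59% of all genes tested). For 7 every Ni value lay above every Con value (7.97% of all genes tested), and for 0 below. Without Con replicate 3 the median was 0.55, and 23 were called higher (8.69% of all genes) and 0 lower (6.49%). The mean deviation from the Con mean, in log2 units, was -0.19, -0.19 and 0.38 in Con and 0.42, 0.36 and 0.39 in Ni, so Con replicate 3 lay within the range of the Ni libraries. Myl9, the regulatory light chain of smooth muscle myosin, had a log2 fold change of 0.22 (SE 0.18), and 0.49 without Con replicate 3 (edgeR, adjusted p = 0.00301). Flna, which crosslinks actin, was at -0.01 (SE 0.11). Cryab, a small heat shock protein of muscle that protects desmin, had 20.1, 22.1 and 32.3 FPKM in Con and 51.4, 40 and 51.7 FPKM in Ni, with no overlap of the groups. Its log2 fold change was 0.94 ± 0.18 (SE, edgeR, adjusted p = 0.208), and 1.18 without Con replicate 3 (adjusted p = 0.000173). Ldb3, a Z-disc protein, was at 0.78 ± 0.34 (SE), and at 1.29 without that library (edgeR, adjusted p = 0.00506).

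The actin relatives differed in direction. Actg2, the other smooth muscle actin, had 29.7, 37.6 and 89.5 FPKM in Con and 83.9, 75.7 and 80.5 FPKM in Ni, with Con replicate 3 above every Ni library, as for Acta2. Its log2 fold change was 0.61 ± 0.41 (SE, edgeR, adjusted p = 0.565), and 1.26 without Con replicate 3 (adjusted p = 6.55e-05). Of the cytoplasmic actins, Actb was at -0.46 ± 0.18 (SE, edgeR, adjusted p = 0.339), with 1552 FPKM in Con replicate 3 against 2198 and 2407 FPKM in the other controls. Actb was called lower without Con replicate 3, at -0.62 (edgeR, adjusted p = 0.00132). Actg1 was at 0.01 ± 0.11 (SE), and Acta1 of skeletal muscle had 7 to 20 counts per library (0.47 ± 0.44, SE). Over the 6 tested actin and myosin paralogs the median was 0.17, with 5 positive, and 0.22 without Con replicate 3, with 1 called higher and 1 lower.

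Desmin's relatives were measured as 5 of 7 intermediate filament genes, all 5 positive (48.1% of all genes tested), at a median log2 fold change of 0.37. In edgeR 2 were higher at an unadjusted p under 0.05 (7.59% of all genes tested). The median was 0.53 without Con replicate 3, with 2 called higher. Vim, the intermediate filament of mesenchymal cells, averaged 367 ± 66.8 FPKM in Con and 491 ± 37.3 FPKM in Ni (SD, n = 3), far above Des. Its log2 fold change was 0.42 ± 0.15 (SE, edgeR, adjusted p = 0.323), and 0.58 without Con replicate 3 (adjusted p = 0.00126). Plec, which links such filaments to adhesions, was at 0.34 ± 0.15 (SE) and at 0.53 without that library (edgeR, adjusted p = 0.00463), and Sync, a partner of desmin, at 0.62 ± 0.39 (SE).

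The regulators of the contractile programme stood closer to 0, with a median of 0.13 over 14 tested genes of 18. Of these, 12 were positive (48.1% of all genes tested). In edgeR 3 were higher at an unadjusted p under 0.05 (7.59% of all genes tested), and none at an adjusted p. Without Con replicate 3 the median was 0.16, with 3 called higher and 0 lower. Srf, the factor that binds CArG boxes, was at 0.05 ± 0.13 (SE) with 16.8 to 22.9 FPKM. Its coactivator Myocd was low, at 7 to 27 counts per library (0.25 ± 0.51, SE). The related coactivators Mrtfa and Mrtfb were at -0.19 ± 0.15 and -0.05 ± 0.10 (SE). Klf4, a zinc finger factor known to oppose contractile genes, had 8.83, 10.2 and 13.99 FPKM in Con and 16.5, 16.9 and 16.4 FPKM in Ni, without overlap of the groups (0.59 ± 0.16, SE, edgeR, adjusted p = 0.262). Klf4 without Con replicate 3 was at 0.81 (edgeR, adjusted p = 0.000479). Csrp2, a LIM protein of smooth muscle, was at 0.45 ± 0.22 (SE) and at 0.80 without that library (edgeR, adjusted p = 0.000332), and Gata6 at 0.70 ± 0.56 (SE) with 5 to 23 counts.

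Ligands and coreceptors around Pdgfrb all had positive values. Of 7 genes, all 7 were tested and positive (48.1% of all genes tested), with a median of 0.23. In edgeR 1 was higher at an unadjusted p under 0.05 (7.59% of all genes tested), and none at an adjusted p. Without Con replicate 3 the median was 0.32, and Pdgfa (0.76, adjusted p = 0.00108), Pdgfc (0.75, adjusted p = 0.00262) and Lrp1 (0.42, adjusted p = 0.0163) were called higher by edgeR. Pdgfa had 9.82, 10.4 and 14.8 FPKM in Con and 18.8, 15.0 and 17.3 FPKM in Ni (0.55 ± 0.16, SE, edgeR, adjusted p = 0.293), with the groups just apart. Pdgfb, the main ligand of PDGFRβ, was at 0.12 ± 0.14, Pdgfc at 0.47 ± 0.21 and Pdgfd at 0.23 ± 0.13 (SE). The receptor Pdgfra was at 0.07 ± 0.09, and the coreceptors Lrp1 and Nrp1 at 0.28 ± 0.15 and 0.05 ± 0.11 (SE).

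The relatives of Fhl5 gave no common direction. Over 6 genes of the FHL family and its partners the median was -0.04, with 2 positive, and -0.01 without Con replicate 3. Fhl1, found in muscle, was at 0.41 ± 0.18, Fhl2 at -0.05 ± 0.09, Fhl3 at -0.39 ± 0.16 and Fhl4 at 0.35 ± 0.53 (SE). A fit without Con replicate 3 called Fhl1 higher (0.60, edgeR, adjusted p = 0.0142) and Fhl3 lower (-0.53, adjusted p = 0.00876). Crem, the factor that FHL5 activates in testis, was at -0.19 ± 0.17 (SE). All of Fhl1, Fhl2 and Fhl3 were above Fhl5 in level, with 19.8 to 61.3 FPKM on average in Con against 0.329 FPKM.

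Relatives of Rgs5 were measured as 6 tested genes of 9 in the R4 family, of which 5 were positive, at a median log2 fold change of 0.30, and 0.38 without Con replicate 3. Rgs4, which is expressed with Rgs5 in pericytes of some tissues, had 2.10, 1.96 and 3.89 FPKM in Con and 5.42, 2.96 and 5.33 FPKM in Ni (0.78 ± 0.32, SE, edgeR, adjusted p = 0.351). Rgs2 was at -0.01 ± 0.14, Rgs3 at 0.39 ± 0.11, Rgs1 at 0.46 ± 0.26, Rgs16 at 0.20 ± 0.14 and Rgs18 at 0.08 ± 0.12 (SE). Of these, edgeR called 3 higher without Con replicate 3, Rgs4 (1.17, adjusted p = 0.0073), Rgs1 (0.83, adjusted p = 0.0189) and Rgs3 (0.48, adjusted p = 0.0107).

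The pericyte genes beyond the members were mixed. Of 31, 25 were tested and 19 were positive, with a median of 0.31. An unadjusted p under 0.05 was reached by 8 higher and 2 lower genes (7.59% and 5.83% of all genes tested), and an adjusted one by none. For 6 every Ni value lay above every Con value (7.97% of all genes tested), and for 1 below. The median was 0.46 over the 26 genes tested without Con replicate 3, with 7 called higher (8.69% of all genes) and 1 lower (6.49%). Ndufa4l2, a mitochondrial protein of pericytes that also responds to hypoxia, had 41.7, 45.5 and 61.6 FPKM in Con and 107, 87.7 and 87.6 FPKM in Ni, with no overlap (0.92 ± 0.15, SE, edgeR, adjusted p = 0.185). It was at 1.11 without Con replicate 3 (edgeR, adjusted p = 0.000115). Gucy1a1, a subunit of the nitric oxide receptor of mural cells, was at 0.95 ± 0.40 (SE) on 23 to 92 counts per library, and the endothelin receptor Ednrb at 0.10 ± 0.22 (SE). The 2 lower genes were Steap4, at -0.64 ± 0.22 (SE) with the groups just apart, and Enpep, at -0.85 ± 0.38 (SE). Steap4 was the 1 gene called lower without Con replicate 3 (-0.79, edgeR, adjusted p = 0.0172).

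Markers of other cell types were followed in the same libraries, and some of them also set Con replicate 3 apart. The summed CPM of 13 osteoblast markers was 10400, 10400 and 20550 in Con and 30500, 22910 and 30070 in Ni, with all 13 positive and a median log2 fold change of 1.26, none at an adjusted p under 0.05. All 13 were higher at an unadjusted p under 0.05 in edgeR (7.59% of all genes tested). For 11 of them every Ni value lay above every Con value (7.97% of all genes tested). The median of these markers was 1.48 without Con replicate 3, with 10 of 13 called higher. The sum was also higher in Con replicate 3 than in the other controls, but below every Ni library, whereas the contractile sum was 4353, 4426 and 5772 in Con and 5601, 5615 and 5485 in Ni. The 17 macrophage markers, all tested, summed to 28480, 29480 and 33730 CPM in Con and 28500 to 29260 CPM in Ni, with 4 positive and a median of -0.19, and without Con replicate 3 the same median, with 1 called higher and 6 lower. With all libraries, 6 of these markers were lower at an unadjusted p under 0.05 in edgeR (5.83% of all genes tested) and 0 higher (7.59%). Lyz2 had the most counts of these, with 189028, 152670 and 251667 in Con. The mean deviation of the macrophage list from the Con mean, in log2 units, was -0.02, 0.08 and -0.06 in Con. Endothelial markers summed to 76.7 to 105 CPM in Con and 72.4 to 80.3 CPM in Ni, with 8 of 18 positive and a median of -0.10 (-0.18 without Con replicate 3, with 1 called lower). Glial markers, which bear on Cspg4 as a gene of oligodendrocyte precursors, summed to 44.7 to 48.7 CPM in Con and 44.7 to 51.4 CPM in Ni, with Olig1 and Olig2 at 0 in every library and most of the sum from Mbp. Striated muscle markers, which bear on Des, summed to 5.34 to 9.70 CPM in Con and 5.10 to 7.48 CPM in Ni, with 9 of 23 at no count, among them Myod1, Myog and Pax7. Marrow stromal markers summed to 3853 to 4126 CPM in Con and 3261 to 3707 CPM in Ni, with a median log2 fold change of -0.08 over 13 genes (-0.04 without Con replicate 3, with 3 called higher and 3 lower). With all libraries, 3 of the 13 were lower at an unadjusted p under 0.05 in edgeR (5.83% of all genes tested) and 1 higher (7.59%). Adipocyte markers summed to 837.5 to 1167 CPM in Con and 818 to 932 CPM in Ni, most of it from Lpl and Cebpa, while 4 of 6 tested were positive, with a median of 0.14 (without Con replicate 3, 0.16 over the same 6 genes and 0.47 over the 8 then tested, with 2 called higher and 1 lower). The part of the cell mix in the members' values was not tested.

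**Figure D5:**
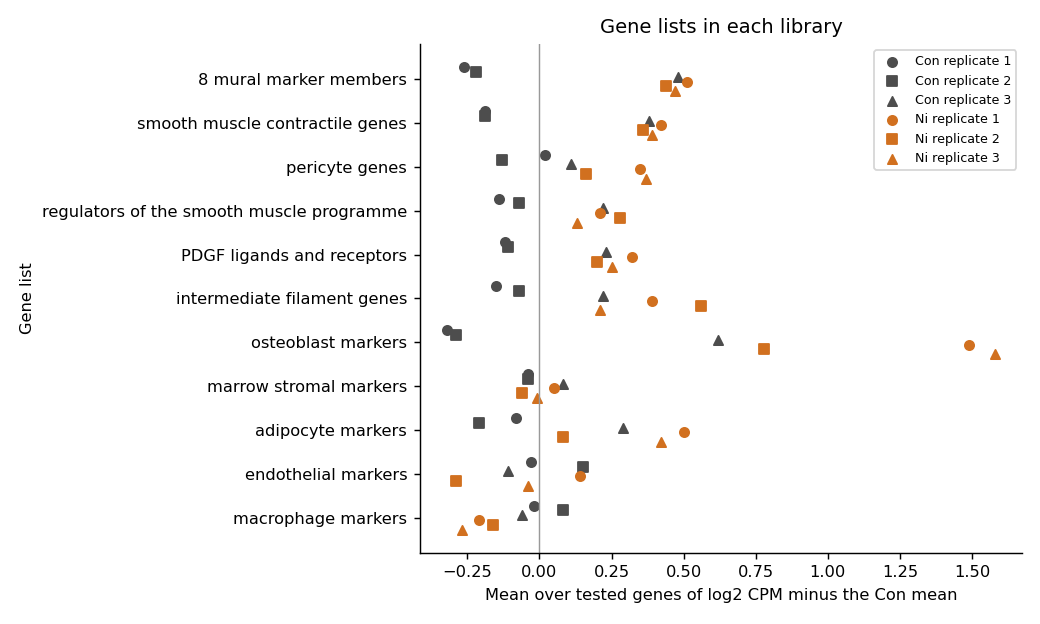
Mean over the tested genes of each list of log2 CPM minus the Con mean (horizontal axis), for each library. The 8 mural markers and the contractile genes place Con replicate 3 (grey triangle) at 0.48 and 0.38 with the Ni libraries, while the osteoblast markers place it at 0.62, between the other controls and the Ni libraries at 0.78 to 1.58.

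The genes whose log2 CPM followed a member most closely over the 6 libraries were named by Pearson's r, as a description over libraries that fall into the same groups. For Acta2 these were Plau (r = 0.997), Stac2 (0.997) and Glis1 (0.996), and 370 genes had an r over 0.95. All 3 were highest in Con replicate 3, as Acta2 was, with 35.9 FPKM there for Plau against 20.8 and 21.9 in the other controls. For Cspg4 they were 4930412C18Rik (0.999), Pard6g (0.997) and Tut4 (0.997), with 161 genes over 0.95. For Fhl5 they were Grrp1 (0.990), Wnt10b (0.987) and Gga2 (0.980), with 40 genes over 0.95. Grrp1 had 0.511, 0.245 and 0.559 FPKM in Con and 1.66, 1.88 and 2.11 FPKM in Ni, and Wnt10b had 1.25, 1.01 and 1.40 FPKM in Con and 2.34, 2.41 and 2.65 FPKM in Ni.

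Tested genes within 5000 bases of a member had values near 0. Stambpl1 beside Acta2 was at 0.01 ± 0.14, Nde1 beside Myh11 at 0.00 ± 0.11, Sidt2 beside Tagln at 0.12 ± 0.10, Elof1 beside Cnn1 at -0.18 ± 0.10 and Cbl beside Mcam at -0.14 ± 0.11 (log2 fold change, SE, edgeR).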

How the data were processed

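Expression in mouse BMSCs at 7 days of osteogenic culture (3 libraries with 0.1 µM NiCl2, 3 without) was taken from tables the authors deposited: raw read counts for 54532 genes and FPKM values, which equal the deposited counts divided by gene length and 1 factor per library (largest relative deviation 3.29e-07). The labels name GRCm38. The aligner, counter, strand setting and count model are not given in the sources used here. Groups follow the sample titles. Totals ranged from 16101033 to 18642504 counts. Counts were filtered by edgeR's filterByExpr, scaled by TMM and passed to the robust quasi-likelihood test of edgeR 4.0.16 (R 4.3.3), with Benjamini-Hochberg adjustment over all 14624 genes tested. DESeq2 1.42.0 and limma 3.58.1 on log2(FPKM + 1) and log2(FPKM + 0.1) were alternatives. Standard errors are the coefficient over the root of F. Log2 CPM values used a prior count of 2. The edgeR step was tested on simulated data. Replicate libraries were not duplicates (chi-square per degree of freedom from 4.55 to 47.1). p-values measure the spread between these libraries.

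The members and lists were chosen with earlier results of these data known. Named were all members, up to 4 genes a list (2 highest by FPKM, 2 by absolute log2 fold change), regulators, PDGF genes, relatives, tested neighbours within 5000 bases and the 3 genes most like Acta2, Cspg4 and Fhl5. The pericyte genes that were lower at an unadjusted p were named too. Coordinates are those of GRCm38 in the deposited annotation, and exon overlap used GENCODE M21. Promoter sequences are from RefSeq (GRCm38.p6).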

Additional observations from a re-analysis of the deposited data

How the results depend on the processing

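Library totals, upper quartile or DESeq2's size factors, the filters on low counts, DESeq2, limma, the replicate block and leaving out each library were tried. Over these, 122 values of the 8 markers kept their direction with an adjusted p above 0.05, 4 passed it and 2 turned. Of the values of Cspg4 and Fhl5, which have no test, 27 moved by less than the spread between replicates and 4 by more. The 4 that passed were Acta2, Myh11, Cnn1 and Pdgfrb without Con replicate 3. Rgs5 ranged from -0.33 to 0.24 with 1 library left out, and the 2 values that turned were those without Con replicate 1 (0.24) and without Ni replicate 2 (0.03). On log2(FPKM + 1), with and without the filter, Cspg4 went from 1.21 to 0.58, Fhl5 from 2.30 to 1.00, Myh11 from 0.85 to 0.28 and Des from 0.70 to 0.20, since the pseudocount understates low genes. Fhl5 has no value with at least 10 counts in every library. Of the list medians without Con replicate 3, an alternative added after seeing the data, 11 moved by less than the spread between replicates, among them the contractile genes (0.35 to 0.55) and the intermediate filament genes (0.37 to 0.53). The pericyte genes (0.31 to 0.46) and the adipocyte markers (0.14 to 0.47, or 0.16 without 2 genes tested only in that fit) moved by more, and the striated muscle markers turned from 0.04 to -0.14 and the glial markers from -0.05 to 0.02.

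Over all genes, edgeR called 0 at an adjusted p under 0.05, and the count was 1027 with no filter, 256 with DESeq2 and 2 with limma on log2(FPKM + 1). With 1 library left out it ranged from 0 to 2283. The count at an unadjusted p under 0.05, 1963, was 3057 with no filter and from 868 to 4125 with 1 library left out. Genes whose groups do not overlap, 2147, ranged from 2944 to 6477 with 1 library left out. The count was 5260 without Ni replicate 2 and 6477 without Con replicate 3, and at most 3281 otherwise. Fewer libraries overlap less, and that part of the range was not tested. The median of the 10 members, 0.55 with the 2 chosen for their rise and 0.35 without them, ranged from 0.32 to 1.03 with 1 library left out and was 0.25 on log2(FPKM + 1). The highest value with a library left out was, for each of these, without Con replicate 3. Deviations of libraries with the same replicate number correlated at 0.01, 0.26 and 0.14, which does not establish a pairing. A fit with the replicate block called 315 genes, none of the 8 markers among them. Low counts limit Fhl5, Des, Myh11 and Tagln.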
